A study of Mus musculus with 48 samples.

Results

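The insulin-like growth factor (IGF) system was followed through 9 of its genes in the tibial metaphysis of mice: the ligands Igf1 and Igf2, the receptor Igf1r and the binding proteins Igfbp2, Igfbp3, Igfbp4, Igfbp5, Igfbp6 and Igfbp7. The genes were taken by symbol from a table of raw RNA-seq counts, and all 9 were found among its 32544 gene rows. Bone came from male mice aged 19 weeks of 8 inbred lines, namely the wild-derived WSB/EiJ, CAST/EiJ and PWK/PhJ and the laboratory strains C57BL/6J, A/J, 129S1/SvImJ, NZO/HlLtJ and NOD/ShiLtJ. In every mouse the left hindlimb had been held in a cast for 3 weeks (immobilized), and the right hindlimb of the same mouse served as its control; no further allele or agent is given by the labels. Each strain had 3 mice. All cast limbs were left limbs, so body side and cast cannot be told apart. The control libraries of A/J replicates 2 and 5 held 2335 and 50 counts and were left out, which left 24 immobilized and 22 control libraries, and 22 mice with both limbs. A/J therefore had 1 control library and 1 complete pair.

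The 46 libraries held between 5253408 and 14744056 counts, with a median of 7593532. Osteoblast genes marked the tissue as bone: the summed level of 10 of them ran from 7688 to 271378 CPM (counts of a gene relative to the TMM-scaled total of its library) in immobilized limbs and from 4709 to 107473 CPM in control limbs, while 4 hepatocyte genes summed to a median of 0.337 and 0.510 CPM in immobilized and control limbs. The hepatocyte sum reached 78.0 CPM in immobilized and 24.8 CPM in control limbs, both in PWK/PhJ. In that strain it was at least 12.8 CPM in immobilized and 9.17 CPM in control limbs. Levels of other tissues varied with the groups. Summed fibrous tissue genes (Col3a1, Dcn, Lum and 5 more) ran from 781 to 16569 CPM in immobilized limbs and from 428 to 10702 CPM in control limbs, and 3 of the 8 rose in immobilized limbs. Summed skeletal muscle genes ran from 19.7 to 19599 CPM in immobilized limbs and from 56.8 to 57156 CPM in control limbs, and 8 of the 10 fell. Of the osteoblast genes 6 of 10 rose in immobilized limbs, as did 5 of 6 for osteoclasts, while 3 of 4 fell for B cells; the part of these cells in the values below was not tested. In these bulk samples fewer cells of a type and less RNA per cell cannot be told apart.

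IGF1 and IGF2 are small secreted growth factors that act on bone cells through the IGF1 receptor, a tyrosine kinase. Osteoblasts make IGFs and store them in bone matrix together with binding proteins, which hold the ligands, lengthen their life or keep them from the receptor; proteases such as PAPP-A release them again. IGF signalling is known to be needed for bone formation and for the response of bone to loading.

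Compared per length of exon, the binding proteins Igfbp4, Igfbp5 and Igfbp7 were the abundant messages. Levels per kilobase of exon (RPKM, the CPM divided by exon length) had a median of 135 in immobilized limbs and 129 in control limbs for Igfbp4, whose product mostly restrains IGF action and is cut by PAPP-A. Igfbp5, the binding protein best known for its tie to bone mineral, had medians of 110 and 97.5 RPKM in immobilized and control limbs. Igfbp7, a low-affinity relative found in vessel walls and matrix, had 107 and 80.5 RPKM. The next, Igfbp3, the main carrier in blood, lay far lower at 12.4 RPKM in immobilized limbs and 9.63 RPKM in control limbs. Igf1r (5.72 and 6.47 RPKM), Igf1 (5.76 and 4.24), Igf2 (4.51 and 4.15) and Igfbp6 (4.43 and 3.62), which prefers IGF2 as its ligand, were lower still. Igfbp2 was the scarcest, with 1.01 RPKM in immobilized limbs and 1.36 RPKM in control limbs. Igfbp1, a binding protein made by liver, had 0 counts in all 48 libraries.

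Igfbp4 and Igfbp5 together made up a median of 67.0% of the summed binding-protein RPKM in immobilized libraries (51.8% to 79.0%) and 68.0% in control libraries (43.6% to 75.6%). The 6 binding proteins summed to 34.6 times the 2 ligands in the median immobilized library (14.9 to 57) and 36.0 times in the median control library (19.8 to 71.1). WSB/EiJ had the highest ratios between the 2 main binding proteins in immobilized limbs: Igfbp4 exceeded Igfbp5 by a factor of 2.31, 3.22 and 3.43 (lowest, median and highest library) in its immobilized limbs and of 1.11, 2.68 and 3.38 in its control limbs. In immobilized limbs no library of another strain reached 2.31, the highest being 1.96 in C57BL/6J, while in control limbs the WSB/EiJ range overlapped those of other strains.

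**Figure D1:**
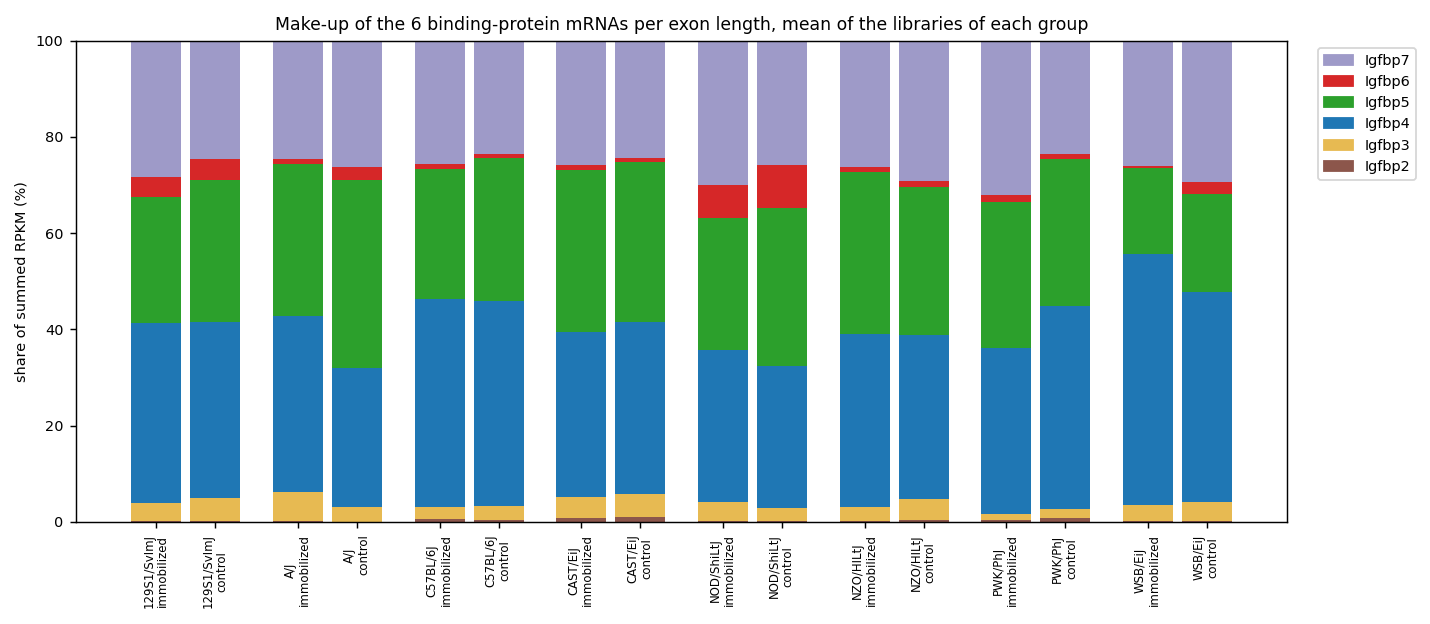
Share of each binding protein in the summed RPKM of Igfbp2 to Igfbp7 (y axis, percent) for the immobilized and control limbs of each strain (x axis); each bar is the mean of the group's libraries (3, or 1 for A/J control). Igfbp4, Igfbp5 and Igfbp7 fill most of every bar, and the Igfbp6 share is widest in NOD/ShiLtJ and 129S1/SvImJ.

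The 9 genes lie on 6 chromosomes of the mouse genome (GENCODE M21 on GRCm38, the build also called mm10, which the submitters' processing notes name). Igf1 is on chromosome 10 (87858265-87937042, plus strand), Igf2 on chromosome 7 (142650766-142666816, minus strand) and Igf1r on the same chromosome (67952827-68233668, plus strand). Igfbp2 (chromosome 1, 72824503-72852474, plus strand) and Igfbp5 (72857932-72874884, minus strand) sit end to end with 5457 bases between them. Igfbp3 (7206086-7213923, minus strand) and Igfbp4 (99041244-99054392, plus strand) are on chromosome 11, Igfbp6 is on chromosome 15 (102144362-102149511, plus strand) and Igfbp7 on chromosome 5 (77349240-77408041, minus strand). Of the Igf1 exon bases, 2600 lie within the span of the antisense gene Igf1os, its introns included. Of the Igf2 exon bases, 475 lie within the span of Igf2os and 5720 within that of the same-strand gene model Gm49394. The strand setting of the counting is not given in the sources used here, so reads of the antisense genes cannot be told apart from those of Igf1 and Igf2. Gm49394 lies on the strand of Igf2, so a strand setting could not tell their reads apart where the genes overlap.

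The start regions of 3 binding-protein genes are shown because the strain tests of the first and the last passed in both limbs whichever library was left out, while the second, Igfbp5, another of the abundant binding proteins, did not pass the same test. All 9 genes matched an entry among RefSeq start regions (GRCm38.p6); the 250 bases before the start site are given 5′ to 3′. The first word searched was TATAAA, which on the other strand reads TTTATA. The second was CCAAT, which on the other strand reads ATTGG. The third was GGGCGG, which on the other strand reads CCGCCC. Capitals mark every match on either strand, and no match overlaps another. The letters are those of the C57BL/6J reference, not of the other strains.
Igfbp4, chr11:99040994-99041243, plus strand: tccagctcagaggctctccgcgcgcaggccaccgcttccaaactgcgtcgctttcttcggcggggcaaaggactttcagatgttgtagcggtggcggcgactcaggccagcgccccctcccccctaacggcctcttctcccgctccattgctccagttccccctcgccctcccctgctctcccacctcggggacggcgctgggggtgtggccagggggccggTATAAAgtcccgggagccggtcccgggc
Igfbp5, chr1:72874866-72875115, minus strand: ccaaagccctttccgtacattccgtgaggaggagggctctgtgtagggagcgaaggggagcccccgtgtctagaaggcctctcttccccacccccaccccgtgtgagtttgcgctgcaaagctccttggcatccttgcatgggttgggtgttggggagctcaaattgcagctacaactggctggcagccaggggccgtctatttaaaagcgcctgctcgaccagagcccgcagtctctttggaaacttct
Igfbp6, chr15:102143936-102144185, plus strand: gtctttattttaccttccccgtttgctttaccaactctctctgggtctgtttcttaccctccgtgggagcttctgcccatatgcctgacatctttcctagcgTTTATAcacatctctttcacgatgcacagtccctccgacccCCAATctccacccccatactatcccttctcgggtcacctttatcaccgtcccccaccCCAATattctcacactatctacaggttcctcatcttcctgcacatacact

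The Igfbp4 region was 69.2% G or C with 22 CpG pairs and held TATAAA at position -28 from the start site. The Igfbp5 region was 58.8% G or C with 10 CpG pairs and held none of the 3 words. The Igfbp6 region was 49.6% G or C with 7 CpG pairs and held TTTATA at -148 and CCAAT at -107 and -50. Over all 32851 start regions of this length the median was 52.4% G or C and 6 CpG pairs, and 12.4% held the first word, 33.9% the second and 32.7% the third. Among the other members, the Igfbp7 region held the third word at 4 positions and had 26 CpG pairs, and the Igf1r region held it at 2 positions and had 42 CpG pairs.

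The first comparison asked whether 3 weeks in a cast changed the IGF genes in bone of the same mice. In the mean over the 8 strains, none of the 9 members passed an edgeR quasi-likelihood test with the mouse as a block at a false discovery rate (FDR) of 0.05, where 7.43% of the 16882 genes tested did (4.58% higher and 2.86% lower in immobilized limbs). The members nearest to the threshold were Igfbp4 and Igf1, both higher in immobilized limbs, and 2 of the 9 had an unadjusted p under 0.05. The median log2 change was 0.15 over the members and 0.01 over all genes tested. DESeq2 called 1 of the 9, Igfbp4, and 11.6% of all genes.

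**Figure D2:**
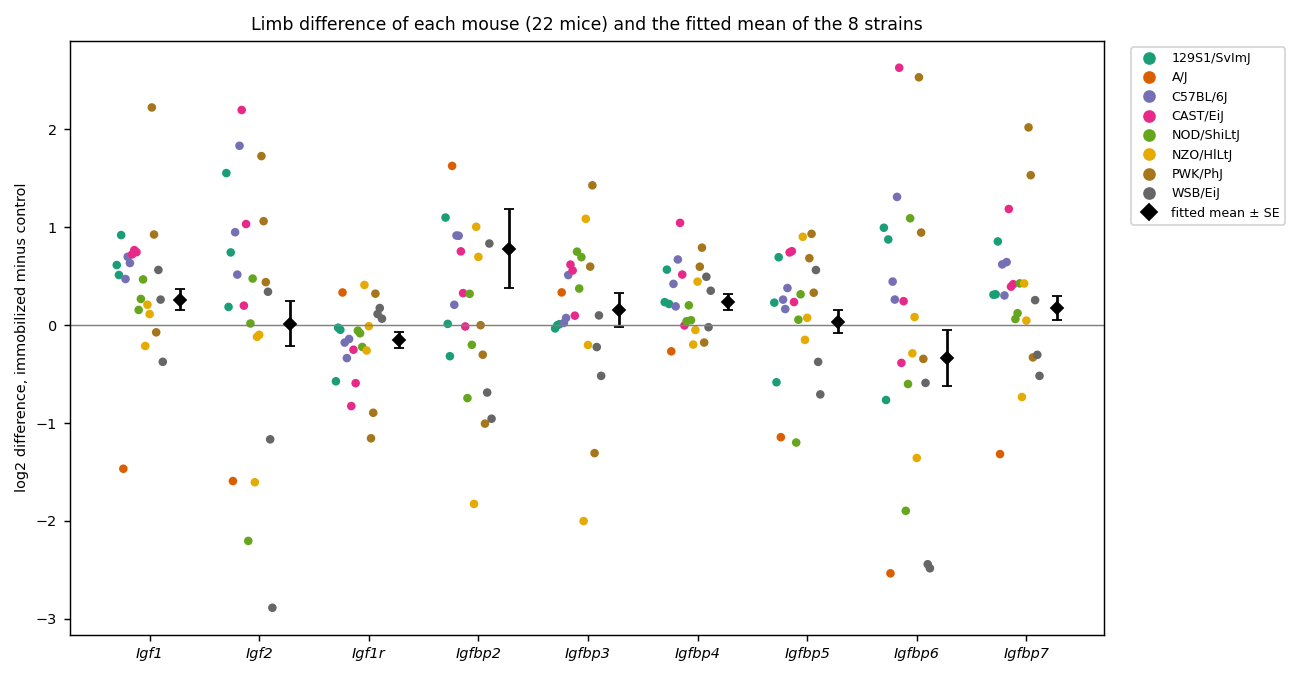
Log2 difference in CPM (with 0.5 added), immobilized minus control, of each of the 22 mice (coloured points, y axis) for each gene (x axis), with the fitted mean over the 8 strains and its standard error (black diamonds). Igf1 points lie above 0 in 18 mice and Igf1r points below 0 in 16, while Igf2 and Igfbp6 spread widely on both sides.

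The mean limb effect turned on the only complete A/J pair. That pair alone stands for a whole strain in the mean. In A/J replicate 1, 6 of the 9 members were lower in the immobilized limb, as were 6 in PWK/PhJ replicate 6 and 7 each in NZO/HlLtJ replicate 4 and WSB/EiJ replicate 5, while the other 18 mice had 1 to 5 lower. Without it, 3 members were called, all higher in immobilized limbs: Igf1 by a log2 change of 0.51 ± 0.10 (SE, FDR = 0.00238), Igfbp7 by 0.39 ± 0.12 (FDR = 0.0320) and Igfbp4 by 0.31 ± 0.08 (FDR = 0.0109), and over all genes the share called was 17.6%. Without PWK/PhJ replicate 6, which called 10% of all genes, 3 members were called too: Igf1 (0.32, FDR = 0.0199) and Igfbp4 (0.26, FDR = 0.0340) higher and Igf1r (-0.22, FDR = 0.0280) lower. Leaving out CAST/EiJ replicate 4 called Igfbp4 alone (0.27, FDR = 0.0497), and the other 19 fits that left out a mouse called none.

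Igf1, the ligand best known for driving postnatal growth, was the member higher in immobilized limbs in the most mice. It ran from 26.8 to 254 CPM with a median of 57.1 CPM in immobilized limbs, and from 21.3 to 113 CPM with a median of 42 CPM in control limbs. In 18 of 22 mice the immobilized limb had more of it, with a fitted log2 change of 0.26 ± 0.10 (SE, FDR = 0.138 by edgeR), which did not pass. In C57BL/6J it had 43.4, 47.1 and 47.0 CPM in immobilized limbs and 31.2, 28.8 and 30.1 CPM in control limbs. In CAST/EiJ it had 35.5, 44.2 and 38.5 CPM in immobilized limbs and 21.3, 25.8 and 22.8 CPM in control limbs. The limbs did not overlap in either strain, and CAST/EiJ had the lowest mean of any strain in each limb. The 4 mice with a lower immobilized limb were A/J replicate 1 (26.8 CPM immobilized, 74.9 CPM control), NZO/HlLtJ replicate 4, PWK/PhJ replicate 6 and WSB/EiJ replicate 5. PWK/PhJ replicate 3 held the highest Igf1 value of all, 254 CPM in the immobilized limb against 54.0 CPM in the control limb, and its summed fibrous tissue genes were also the highest, 16569 CPM against 1574 CPM. With the fibrous tissue level of each library in the model, an alternative not planned beforehand, the Igf1 change was 0.09 ± 0.08 (FDR = 0.581). With skeletal muscle level in the model, which was planned, the Igf1 change was 0.35 ± 0.15 (FDR = 0.175). The part of either tissue in the Igf1 change was not tested.

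Igf2, the second ligand and an imprinted growth factor of fetal life, had no mean limb difference beyond its error (log2 change 0.01 ± 0.23, SE). It ran from 10.4 to 215 CPM in immobilized limbs and from 7.64 to 106 CPM in control limbs. Limb differences had opposite signs in different strains. In PWK/PhJ it had 84.4, 32.4 and 29.5 CPM in immobilized limbs and 25.2, 15.3 and 21.6 CPM in control limbs, without overlap. In WSB/EiJ it had 14.3, 10.4 and 13.8 CPM in immobilized limbs and 11.2, 24 and 105 CPM in control limbs, where the last value came from replicate 5 and the limbs overlapped. The test of a limb effect differing among strains gave Igf2 an FDR of 0.181.

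The receptor mostly differed from Igf1 in the sign of its limb difference. Igf1r had a median of 96 CPM in immobilized limbs (50.04 to 149) and 109 CPM in control limbs (59.5 to 173), was lower in the immobilized limb of 16 of 22 mice and had a fitted log2 change of -0.15 ± 0.08 (SE, FDR = 0.279). In CAST/EiJ it had 78.6, 108 and 114 CPM in immobilized limbs and 140, 129 and 173 CPM in control limbs. All 3 immobilized values were below all control values there, and the log2 change was -0.56 ± 0.20 (FDR = 0.0722). With fibrous tissue level in the model the mean Igf1r change over the strains was -0.02 ± 0.06 (FDR = 0.925). With skeletal muscle level in the model that mean change was -0.32 ± 0.10 (FDR = 0.0623). The 16 mice with a lower Igf1r were all among the 18 with a higher Igf1, and the 4 with a lower Igf1 had a higher Igf1r, so that the genes differed in sign in 20 of 22 mice. Of the 16882 genes tested, 1.01% differed in sign from Igf1 in at least as many mice. Both values of a mouse come from the same pair of libraries, so that this count is a description.

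**Figure D3:**
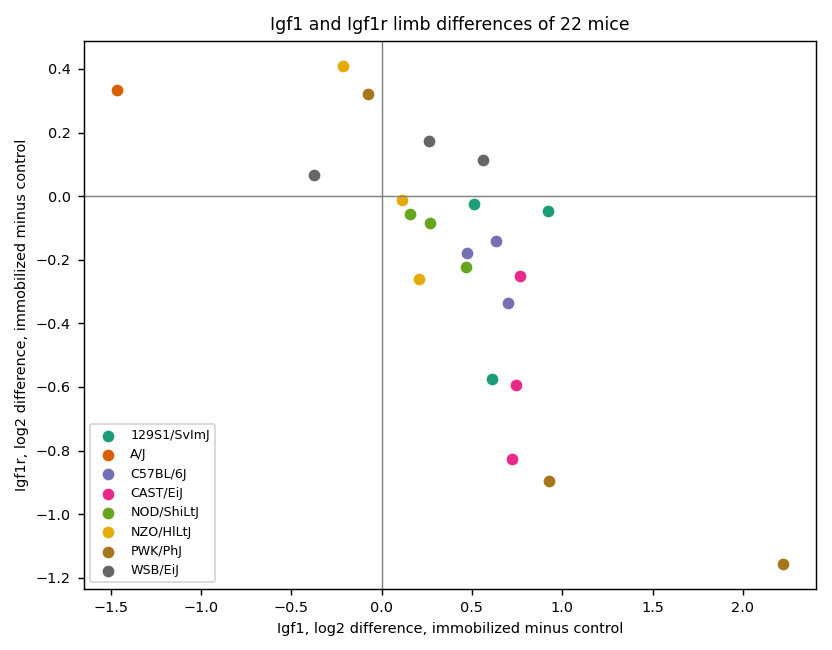
Limb difference of Igf1 (x axis) against that of Igf1r (y axis), both as log2 of immobilized minus control CPM with 0.5 added; each point is 1 of 22 mice, coloured by strain. There are 16 mice in the lower right corner (Igf1 higher, Igf1r lower) and 4 in the upper left, and PWK/PhJ replicate 3 lies farthest out.

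Of the binding proteins, Igfbp4 came closest to a call. It had a median of 596 CPM in immobilized limbs (267 to 1448) and 570 CPM in control limbs (267 to 977), exceeded the control limb in 16 of 22 immobilized limbs and had a log2 change of 0.23 ± 0.08 (SE, FDR = 0.0834). In C57BL/6J it had 706, 796 and 998 CPM in immobilized limbs and 527, 697 and 627 CPM in control limbs, and the limbs did not overlap. Igfbp7 exceeded the control limb in 17 of 22 immobilized limbs, with a log2 change of 0.17 ± 0.12 (FDR = 0.442). In C57BL/6J it had 150.5, 119.7 and 133 CPM in immobilized limbs and 97.7, 96.9 and 85 CPM in control limbs, again without overlap. With fibrous tissue level in the model the Igfbp7 change was -0.05 ± 0.07, on the other side of 0, and that of Igfbp4 was 0.17 ± 0.08. With skeletal muscle level in the model the changes were 0.32 ± 0.17 for Igfbp7 and 0.22 ± 0.12 for Igfbp4.

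Igfbp3 (log2 change 0.15 ± 0.17, SE), Igfbp5 (0.04 ± 0.12) and Igfbp6 (-0.33 ± 0.29) had mean limb differences within or near their errors and did not pass. The Igfbp6 value rested on A/J replicate 1, with 1.56 CPM in the immobilized limb against 11.5 CPM in the control limb: without that mouse it was 0.03 ± 0.26. Igfbp2 was counted too sparsely in A/J for a fold, with 6 counts in the immobilized library and 0 of 5888836 counts in the control library of replicate 1. A floor of 3 counts in that control library stands for 0.521 CPM, against 1.04 CPM in the immobilized library. The error of the 6 immobilized counts is not in this comparison, so it gives no lower bound for a fold. The fitted mean Igfbp2 change of 0.78 ± 0.41 includes the A/J pair and is not a size; without that pair it was 0.02 ± 0.24. The floor covers counting error only, and that of the control library alone.

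Within single strains none of the 9 members passed the test in any of the 8. The share of all genes called was 13.9% in CAST/EiJ, 8.33% in NOD/ShiLtJ, 3.99% in A/J, 0.0889% in PWK/PhJ, 0.00592% in C57BL/6J, NZO/HlLtJ and WSB/EiJ alike, and 0 in 129S1/SvImJ. The A/J values rest on 1 pair and take their error from the other strains, so that they carry no replicate check of their own. At an unadjusted p under 0.05 there were 5 members in A/J, 4 each in CAST/EiJ and PWK/PhJ, 2 each in C57BL/6J and WSB/EiJ, 1 in 129S1/SvImJ and 0 in NOD/ShiLtJ and NZO/HlLtJ. In the fit of all strains, 3 members passed in PWK/PhJ without its replicate 6: Igf1 (log2 change 1.57, FDR = 0.00961) and Igfbp7 (1.76, FDR = 0.00961) higher and Igf1r (-1.05, FDR = 0.0151) lower in immobilized limbs. The same fit called Igf1, Igf1r and Igfbp7 in CAST/EiJ, and the fit without PWK/PhJ replicate 3 called Igf1 and Igf1r there. The shares of all genes that these left-out fits called in single strains are not given here, so these counts have no background beside them. Fitted on its own 6 libraries, CAST/EiJ had 3 members called, with Igf1 (log2 change 0.73, FDR = 0.00789) and Igfbp7 (0.65, FDR = 0.0274) higher and Igf1r (-0.58, FDR = 0.0336) lower in immobilized limbs. That fit called 23.9% of all genes. Fitted likewise, C57BL/6J had 2 members called, Igf1 (0.60, FDR = 0.0354) and Igfbp7 (0.51, FDR = 0.0434), where 1.03% of all genes were called.

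C57BL/6J was the strain in which most members separated the limbs. Immobilized values lay wholly above control values for 6 of the 9 members (Igf1, Igf2, Igfbp2, Igfbp4, Igfbp6 and Igfbp7), where 9.18% of all genes did so, and wholly below for Igf1r, where 6.37% did. Its Igf2 had 18.9, 15.5 and 32.0 CPM in immobilized limbs and 9.55, 10.7 and 8.62 CPM in control limbs. Its Igfbp2 had 3.88, 4.96 and 5.39 CPM in immobilized limbs and 3.29, 2.39 and 2.63 CPM in control limbs. Fibrous tissue genes separated the limbs of this strain as well, with 1003 to 2329 CPM in immobilized limbs and 682 to 771 CPM in control limbs; their part in these differences was not tested within the strain. In CAST/EiJ 3 members lay wholly above (Igf1, Igf2 and Igfbp5; 18.2% of all genes) and Igf1r wholly below (17.2%), and fibrous tissue genes summed to 2621 to 2974 CPM in immobilized limbs and 526 to 1264 CPM in control limbs. In PWK/PhJ Igf2 and Igfbp5 lay wholly above (6.4%) and Igfbp2 wholly below (6.11%), in NOD/ShiLtJ Igfbp3 lay wholly above (15.9%) and in WSB/EiJ Igfbp6 wholly below (4.27%). No member separated the limbs in 129S1/SvImJ, where 4.88% of all genes lay above and 3.21% below, or in NZO/HlLtJ, where 2.29% and 2.7% did.

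Whether the limb effect differed among strains was tested directly. None of the 9 members passed, against 2.5% of all genes, and 4 had an unadjusted p under 0.05: Igf1 (FDR = 0.120), Igf2 (0.181), Igfbp7 (0.194) and Igfbp6 (0.223). DESeq2 called these 4, and 14.6% of all genes. Without A/J replicate 1 the lowest of their FDR values was 0.320, and over all genes 4 (0.0251%) were called in place of 422. Without PWK/PhJ replicate 6, by contrast, Igfbp7 (FDR = 0.0133), Igf1 (0.0155) and Igf1r (0.0441) passed, and without PWK/PhJ replicate 3 Igf1 did (0.0473); the first of these fits called 3.87% of all genes.

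**Figure D4:**
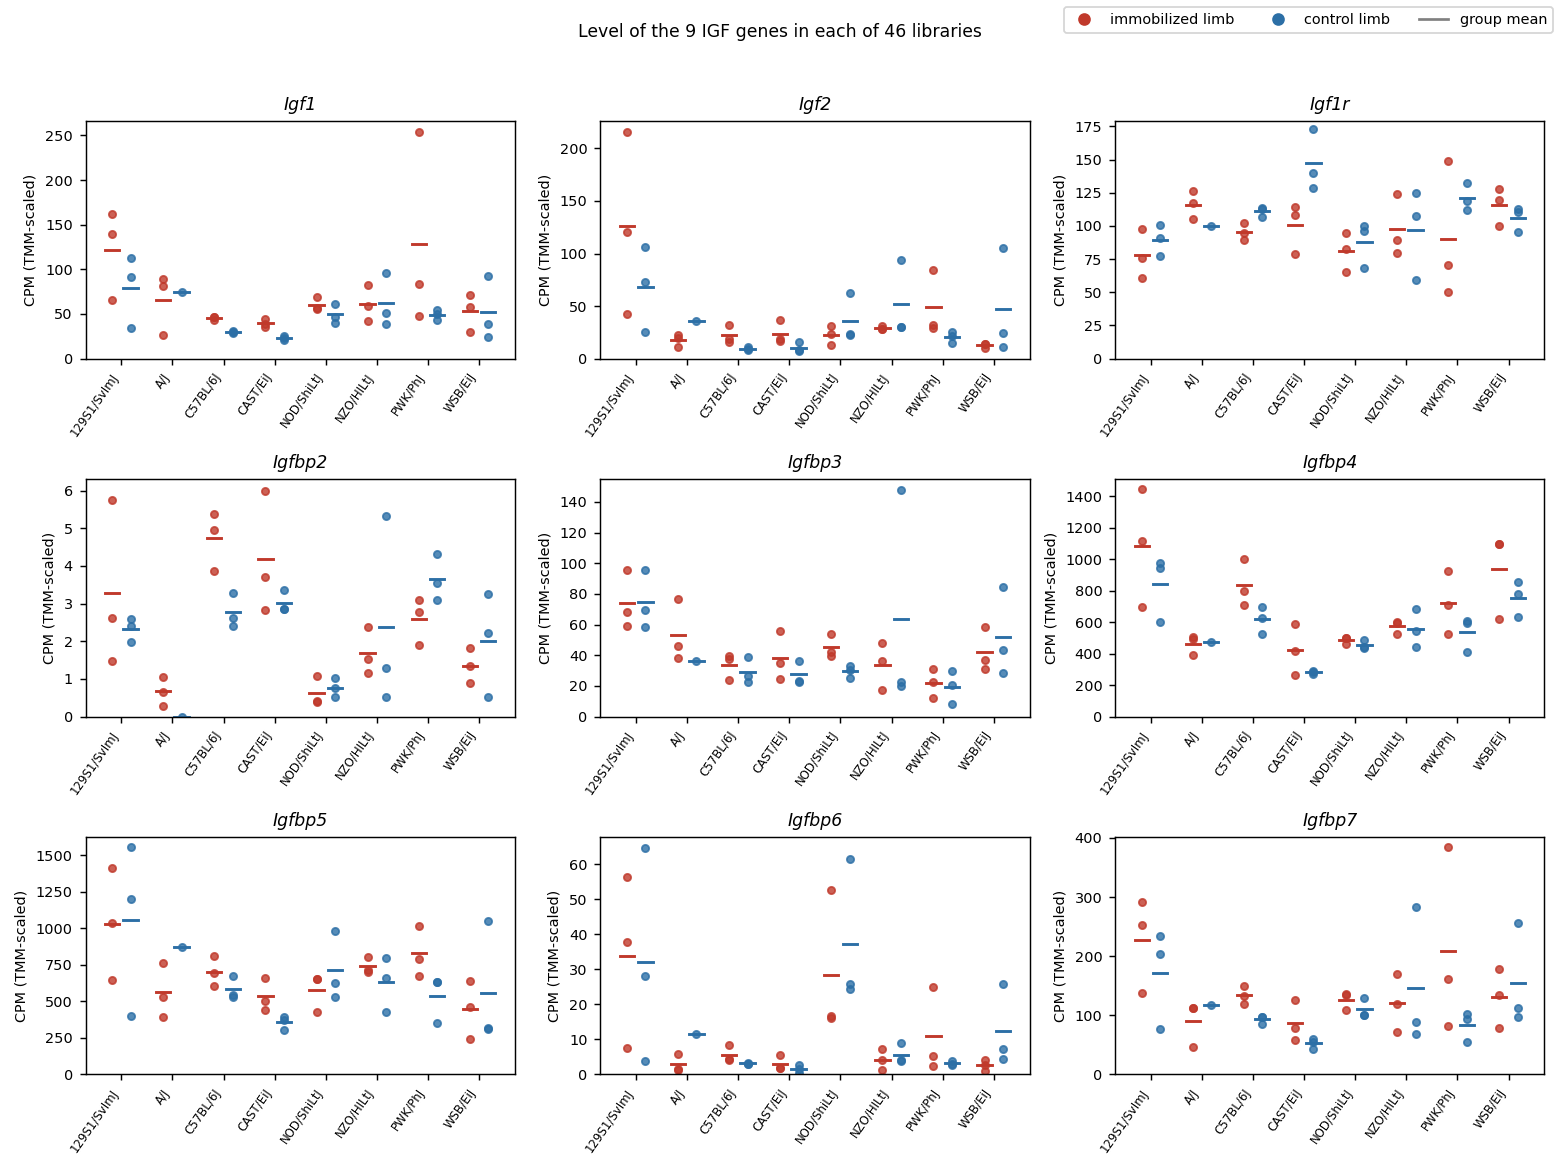
Level of each gene in CPM (y axis, from 0) in each of the 46 libraries, by strain (x axis), with immobilized limbs (red) left of control limbs (blue); points are libraries and bars are group means. Single libraries stand far above their group for Igf1 in PWK/PhJ immobilized limbs (254 CPM) and for Igfbp3 in NZO/HlLtJ control limbs (148 CPM).

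The second comparison asked how the IGF genes differed among the 8 strains within one limb. In immobilized limbs 6 of 9 members differed among strains (Igf1, Igf2, Igfbp2, Igfbp3, Igfbp4 and Igfbp6) and in control limbs 5 of 9 did (Igf1, Igf2, Igfbp2, Igfbp4 and Igfbp6). Strain differences were common, with 50.3% of 15478 genes called in immobilized limbs and 40.6% of 16493 in control limbs, so these counts of members are near the background. Igf2, Igfbp2, Igfbp4 and Igfbp6 passed in immobilized limbs in all 24 fits that left out a library. In control limbs Igfbp4 and Igfbp6 did so in all 22.

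Igfbp4 had its lowest levels in CAST/EiJ and its highest in 129S1/SvImJ and WSB/EiJ. In CAST/EiJ it had 590, 415 and 267 CPM in immobilized limbs and 286, 290 and 267 CPM in control limbs. In 129S1/SvImJ it had 1113, 1448 and 697 CPM in immobilized limbs and 945, 977 and 600 CPM in control limbs. The 3 CAST/EiJ control values lay below the 19 control values of the other strains, the lowest of which was 408 CPM. How many of all genes separated CAST/EiJ in this way is not given. The strain test gave an FDR of 0.00302 in immobilized limbs and 0.000644 in control limbs.

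Set against the mean of the other 7 strains, CAST/EiJ had a log2 Igfbp4 difference of -0.71 ± 0.23 (SE, FDR = 0.0365) in immobilized limbs and -1.07 ± 0.17 (FDR = 0.000242) in control limbs. For 129S1/SvImJ it was 0.82 ± 0.20 (FDR = 0.0127) and 0.75 ± 0.15 (FDR = 0.00596) in immobilized and control limbs. In WSB/EiJ it was 0.54 ± 0.15 in control limbs (FDR = 0.0400), from 779, 629 and 856 CPM, and 0.62 ± 0.21 in immobilized limbs (FDR = 0.0700), from 1097, 620 and 1093 CPM. In control limbs these contrasts called 22.7% of all genes for CAST/EiJ, 6.49% for 129S1/SvImJ and 6.54% for WSB/EiJ, and in immobilized limbs 18.6%, 9.9% and 8.05%. In control limbs the middle of the order ran from C57BL/6J (617 ± 85.5 CPM, SD, n = 3) through NZO/HlLtJ (555 ± 121), PWK/PhJ (538 ± 113) and A/J (473, 1 library) to NOD/ShiLtJ (455 ± 27.8), and neighbours in it overlapped. The CAST/EiJ value in control limbs was called in every one of the 22 fits and with either tissue covariate, while the 129S1/SvImJ value lost its call without replicate 2 (0.66, FDR = 0.0692) or replicate 3 (0.63, FDR = 0.0915) of that strain, and with skeletal muscle level in the model (0.77, FDR = 0.0997). In immobilized limbs the CAST/EiJ call was lost without its replicate 3 (-0.71, FDR = 0.128) or 4 (-0.47, FDR = 0.241), and that of 129S1/SvImJ without its replicate 2 (0.80, FDR = 0.113) or 3 (0.56, FDR = 0.210). The WSB/EiJ call was lost in 9 of the 22 fits, with the highest FDR (0.243) without its replicate 5.

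Igfbp6 strain means differed 12.8-fold between the highest and the lowest strain in immobilized limbs and 24-fold in control limbs. In NOD/ShiLtJ it had 16.2, 16.8 and 52.7 CPM in immobilized limbs and 61.5, 25.7 and 24.5 CPM in control limbs. In 129S1/SvImJ it had 56.3, 37.8 and 7.66 CPM in immobilized limbs and 28, 64.5 and 3.95 CPM in control limbs. The 3 NOD/ShiLtJ values exceeded those of all 5 strains other than 129S1/SvImJ and PWK/PhJ in immobilized limbs, while in control limbs a WSB/EiJ library, at 25.9 CPM, lay within its range. CAST/EiJ was lowest in control limbs, with 0.463, 2.75 and 1.43 CPM from 4, 30 and 17 counts.

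Against the other 7 strains the log2 Igfbp6 difference of NOD/ShiLtJ was 2.29 ± 0.52 (SE, FDR = 0.00546) in immobilized limbs and 2.56 ± 0.49 (FDR = 0.00179) in control limbs. For 129S1/SvImJ it was 2.57 ± 0.51 (FDR = 0.00222) and 2.31 ± 0.50 (FDR = 0.0101). For CAST/EiJ it was -2.65 ± 0.74 in control limbs (FDR = 0.0167). The NOD/ShiLtJ contrast called 19.6% of all genes in immobilized limbs and 10.8% in control limbs. Single libraries carried these calls: without NOD/ShiLtJ replicate 6 the immobilized value was 1.55 (FDR = 0.152), without its replicate 4 the control value was 1.97 (FDR = 0.0693), without 129S1/SvImJ replicate 2 the immobilized value was 1.98 (FDR = 0.118) and without its replicate 3 the control value was 1.32 (FDR = 0.382). The CAST/EiJ call was lost without its replicate 2 (-2.25, FDR = 0.0927) or replicate 4 (-2.57, FDR = 0.0880).

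Levels of other tissues also differed between strains, and their part in the Igfbp6 differences was not tested. Fibrous tissue genes summed to 7159 to 8939 CPM in NOD/ShiLtJ immobilized limbs and 3967 to 4947 CPM in its control limbs, and to 2621 to 2974 CPM and 526 to 1264 CPM in those of CAST/EiJ. In NOD/ShiLtJ the fibrous sums were higher in immobilized limbs. Its mean Igfbp6 was 28.5 CPM there and 37.2 CPM in control limbs, and the limbs overlapped. In NZO/HlLtJ control limbs the fibrous sums ran from 428 to 10702 CPM, and Igfbp6 had 9.08, 3.86 and 4.10 CPM (replicates 4, 5 and 6). Skeletal muscle genes summed to 12662 to 57156 CPM in NOD/ShiLtJ control limbs, and to 261 to 5669 CPM in those of CAST/EiJ. With fibrous tissue level in the model the strain test of Igfbp6 in control limbs gave an FDR of 0.0805, and the control contrasts were 1.26 for NOD/ShiLtJ (FDR = 0.0810), 1.24 for 129S1/SvImJ (FDR = 0.121) and -1.57 for CAST/EiJ (FDR = 0.0667), none of which passed. With skeletal muscle level in the model the strain test in immobilized limbs gave 0.0585, and the contrasts of 129S1/SvImJ were 2.56 (FDR = 0.168) in immobilized limbs and 1.49 (FDR = 0.696) in control limbs. That of NOD/ShiLtJ in control limbs did not pass either (FDR = 0.831), while its immobilized contrast of 2.29 (FDR = 0.0443) and the CAST/EiJ control contrast passed.

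**Figure D5:**
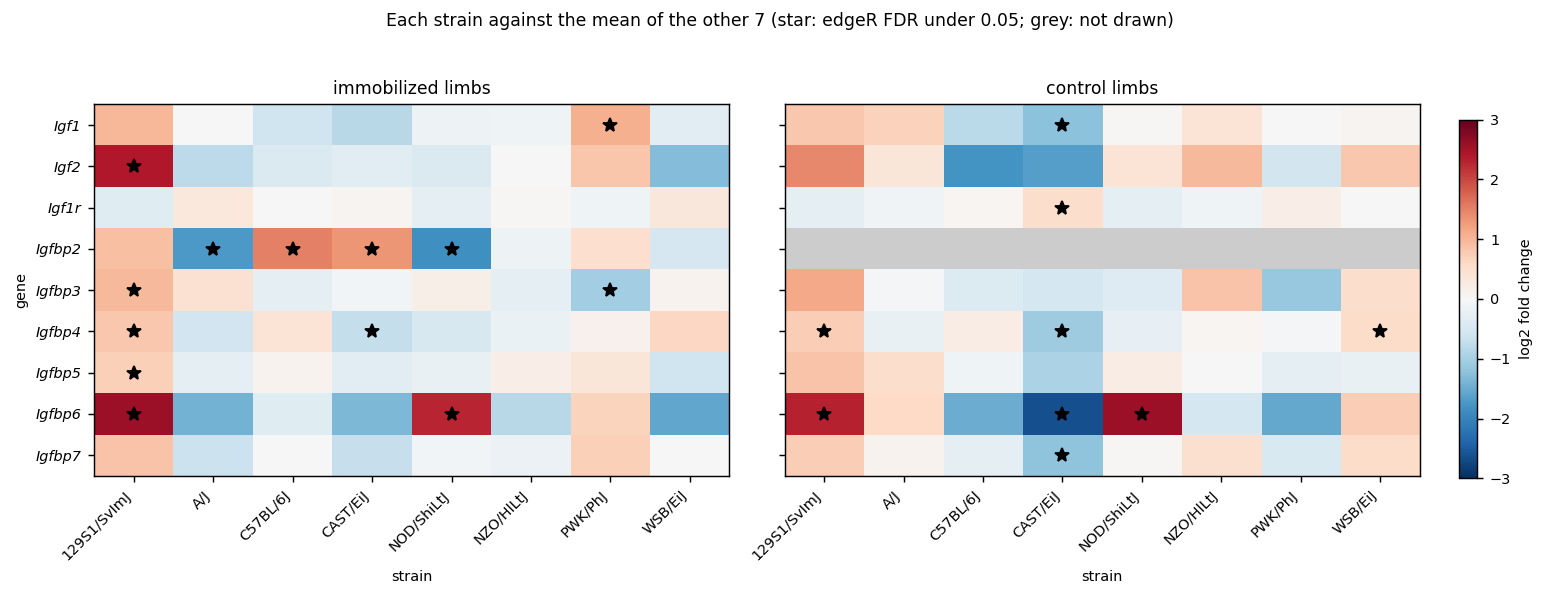
Log2 fold change of each strain (x axis) against the mean of the other 7 strains for each gene (y axis), in immobilized limbs (left) and control limbs (right); stars mark an edgeR FDR under 0.05. 129S1/SvImJ is high for Igf2 and Igfbp6, NOD/ShiLtJ is high for Igfbp6, and CAST/EiJ is low for Igfbp6 and Igfbp4 in control limbs; Igfbp2 in control limbs is grey because the A/J library there held 0 counts.

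Igf2 separated 129S1/SvImJ from the rest in immobilized limbs. It had 215, 121 and 42.5 CPM there, against values between 10.4 and 84.4 CPM in the immobilized limbs of the other 7 strains. The lowest 129S1/SvImJ library exceeded all but 1 of them, PWK/PhJ replicate 3. The log2 difference was 2.41 ± 0.30 (SE, FDR = 1.65e-05) and stayed called in all 24 fits. In control limbs 129S1/SvImJ had 73.1, 106 and 25.2 CPM and its difference of 1.45 ± 0.47 was not called (FDR = 0.0786). The lowest control levels were those of C57BL/6J (9.62 ± 1.04 CPM, SD, n = 3) and CAST/EiJ (10.4 ± 4.64 CPM), which overlapped. The strain test of Igf2 gave an FDR of 0.00017 in immobilized limbs and 0.0272 in control limbs, and the control call was lost in 7 of 22 fits, with the highest FDR (0.0633) without CAST/EiJ replicate 4.

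Igfbp2, a carrier with a role in osteoblast differentiation, was scarce but split the strains in immobilized limbs. C57BL/6J had 3.88, 4.96 and 5.39 CPM and CAST/EiJ had 6.00, 3.70 and 2.84 CPM. NOD/ShiLtJ had 0.408, 1.08 and 0.382 CPM and A/J had 1.04, 0.665 and 0.289 CPM, from 2 to 7 counts a library. No library of the first pair of strains overlapped one of the second pair. These pairs hold ranks 1 and 2 and ranks 7 and 8 of the strain means, so the gap follows in part from their choice. The share of all genes with such a gap is not given. Against the other 7 strains the log2 differences were 1.51 ± 0.33 (SE, FDR = 0.00514) in C57BL/6J, 1.32 ± 0.34 (FDR = 0.00810) in CAST/EiJ, -1.84 ± 0.48 (FDR = 0.0117) in NOD/ShiLtJ and -1.73 ± 0.48 (FDR = 0.0196) in A/J. These contrasts called 7.75%, 18.6%, 19.6% and 13.7% of all genes in the same order. Each of these calls was lost in 1 or 2 of the 24 fits, always on leaving out a library of the strain itself: C57BL/6J without replicate 6 (1.40, FDR = 0.0613), CAST/EiJ without replicate 2 (0.98, FDR = 0.123), NOD/ShiLtJ without replicate 4 (-1.54, FDR = 0.0910) or 6 (-1.61, FDR = 0.0946) and A/J without replicate 2 (-1.74, FDR = 0.0671) or 5 (-1.38, FDR = 0.120). The strain test had an FDR of 0.000627. In control limbs the test gave 0.0367, but 0.165 without the A/J library at 0 counts. It also lost its call without any single library of C57BL/6J, CAST/EiJ, NOD/ShiLtJ or PWK/PhJ (FDR up to 0.0793, without NOD/ShiLtJ replicate 6). With skeletal muscle level in the model the FDR was 0.0922. The only called contrast in control limbs was PWK/PhJ at 3.11, 3.54 and 4.33 CPM (16.7% of all genes called). That contrast was 0.83 (FDR = 0.216) without the A/J library. It also lost its call without any single PWK/PhJ library (FDR up to 0.0944).

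Igf1 and Igfbp3 differed among strains with less support. Igf1 had an FDR of 0.0386 in immobilized limbs and 0.0447 in control limbs, and lost its call in 13 of 24 fits and in 14 of 22 fits, up to an FDR of 0.0843 without 129S1/SvImJ replicate 3 and 0.108 without CAST/EiJ replicate 2. The PWK/PhJ contrast of Igf1 in immobilized limbs, 1.07 ± 0.34 (SE, FDR = 0.0314, where 18.7% of all genes were called), was 0.10 (FDR = 0.886) without replicate 3. In control limbs CAST/EiJ had the lowest Igf1, with a log2 difference of -1.22 ± 0.36 (FDR = 0.0225), and the highest Igf1r, with 0.53 ± 0.16 (FDR = 0.0275). Its Igfbp7 was lower as well, at 54.8, 60.4 and 43.4 CPM, with -1.20 ± 0.40 (FDR = 0.0394). In all, 5 of 9 members were called in this contrast, 4 lower (9.57% of all genes) and 1 higher (13.1%). The Igf1 and Igf1r calls were lost on leaving out single CAST/EiJ libraries (Igf1 at FDR up to 0.102, Igf1r up to 0.212, both without replicate 4), and that of Igfbp7 in 9 of 22 fits (up to 0.180, without replicate 4). With fibrous tissue level in the model the 3 values were -0.64, 0.25 and -0.43, and none passed. With skeletal muscle level in the model they were -1.10, 0.47 and -1.11, and none passed either. The Igf1 strain test in control limbs lost its call with skeletal muscle level (FDR = 0.144). In immobilized limbs that test lost its call with fibrous tissue level (FDR = 0.0774) or skeletal muscle level (FDR = 0.0790).

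Igfbp3 had an FDR of 0.0289 in immobilized limbs, lost in 4 of 24 fits (up to 0.0905, without 129S1/SvImJ replicate 3), and of 0.112 in control limbs. The control value turned on NZO/HlLtJ replicate 4, at 148 CPM against 22.4 and 19.9 CPM in the other two libraries of its group: without it the FDR was 0.00690, and without NZO/HlLtJ replicate 6 it was 0.0453. In immobilized limbs 129S1/SvImJ was higher (68.0, 95.4 and 58.9 CPM; log2 difference 0.98 ± 0.27, FDR = 0.0241) and PWK/PhJ lower (31.0, 22.5 and 11.8 CPM; -1.05 ± 0.33, FDR = 0.0280). Leaving out 129S1/SvImJ replicate 3 (0.76, FDR = 0.214) or 2 (1.03, FDR = 0.123), or PWK/PhJ replicate 6 (-0.75, FDR = 0.156) or 4 (-1.08, FDR = 0.0992), ended these calls.

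Igfbp5, Igfbp7 and Igf1r did not pass the edgeR strain test in either limb. DESeq2 called Igfbp5 (FDR = 0.00995) and Igfbp7 (0.0320) in immobilized limbs, and Igfbp7 (0.0355) and Igf1r (0.0467) in control limbs. Igfbp5 had an FDR of 0.0649 in immobilized limbs and 0.205 in control limbs. Its 129S1/SvImJ contrast in immobilized limbs (0.72 ± 0.23, SE, FDR = 0.0498) was called at the threshold and lost in 17 of 24 fits, up to an FDR of 0.563 without replicate 2. Igf1r had the narrowest range of strain means, 1.49-fold in immobilized limbs (A/J highest, 129S1/SvImJ lowest) and 1.67-fold in control limbs (CAST/EiJ highest, NOD/ShiLtJ lowest). Every neighbour in both orders overlapped. Leaving out single libraries brought some of these tests past the threshold: Igf1r without PWK/PhJ replicate 6 in immobilized limbs (FDR = 0.0211) and without NZO/HlLtJ replicate 4 in control limbs (0.0163), Igfbp7 without those same libraries (0.0274 and 0.0184) and without 129S1/SvImJ replicate 6 in control limbs (0.0375), and Igfbp5 in 3 immobilized fits (lowest 0.0263) and 2 control fits (lowest 0.0331).

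Of the 9 members, 129S1/SvImJ had 5 called in immobilized limbs (Igf2, Igfbp3, Igfbp4, Igfbp5 and Igfbp6), all higher, where 6.76% of all genes were called higher. It had 2 in control limbs (Igfbp4 and Igfbp6), both higher, where 5.04% were. Its fibrous tissue genes summed to 6804, 10775 and 2336 CPM in immobilized limbs and 2690, 4470 and 903 CPM in control limbs (replicates 2, 3 and 6), and replicate 6, the lowest, also had the lowest value of Igf2, Igfbp4 and Igfbp6 in each limb. With fibrous tissue level in the model the immobilized calls of Igfbp3 (0.39), Igfbp4 (0.47), Igfbp5 (0.57) and Igfbp6 (0.94) were lost. The same calls were lost with skeletal muscle level in the model. The log2 differences were then 0.9999 (FDR = 0.238) for Igfbp3 and 0.70 (FDR = 0.296) for Igfbp4. Those of Igfbp5 and Igfbp6 were 0.58 (FDR = 0.531) and 2.56 (FDR = 0.168).

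The pathway around these genes was read from 29 partners, of which 25 passed the filter on low counts. In the mean limb effect 2 of the 25 rose and 0 fell, where 4.58% and 2.86% of all genes did. Akt1, a kinase downstream of the receptor, ran from 173 to 278 CPM with a median of 220 CPM in immobilized limbs and from 154 to 228 CPM with a median of 180 CPM in control limbs. In 19 of 22 mice the immobilized limb had more, with a log2 change of 0.25 ± 0.05 (SE, FDR = 0.0112). Socs2, an inhibitor of growth hormone signalling, ran from 11 to 50.7 CPM in immobilized limbs and from 8.36 to 34.5 CPM in control limbs and had a log2 change of 0.45 ± 0.11 (FDR = 0.0187). Both stayed called whichever of the 22 mice was left out. The median change over the 25 partners was 0.04. With skeletal muscle level in the model Akt1 was 0.18 (FDR = 0.149), and with fibrous tissue level Socs2 was 0.31 (FDR = 0.0721). Within single strains 4 of the 25 partners were called in CAST/EiJ, all higher, where 13.9% of all genes were called. In NOD/ShiLtJ 3 were called higher and 1 lower, where 8.33% of all genes were called. In A/J, with 1 pair, 2 were called lower, where 3.99% were called, and in the other 5 strains 0 were called by edgeR (0 to 2 a strain at an unadjusted p under 0.05). No partner passed the test of a limb effect differing among strains, although up to 4 did when 1 mouse was left out (NZO/HlLtJ replicate 5). The share of all genes called in that fit is not given.

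Among control limbs 7 of the 25 partners differed among strains, where 40.6% of all genes did. The widest spreads of strain means were those of Stc2, an inhibitor of PAPP-A (129S1/SvImJ 19.0 ± 14.6 CPM, NZO/HlLtJ 2.07 ± 2.26 CPM, SD, n = 3 each), and of Igf2bp2, an RNA-binding protein (PWK/PhJ 8.05 ± 1.49 CPM, CAST/EiJ 1.20 ± 0.48 CPM). Ghr, the growth hormone receptor, followed (A/J 112 CPM in 1 library, CAST/EiJ 18.8 ± 2.15 CPM). Pappa, which encodes the PAPP-A protease that cuts Igfbp4, came next, with 46.9 ± 19.1 CPM in 129S1/SvImJ and 9.58 ± 1.74 CPM in CAST/EiJ (FDR = 0.00236). These were also the strains with the highest and lowest mean Igfbp4 in control limbs, and likewise for Igf1, Igfbp5 and Igfbp7. A link between Pappa and any of these genes was not tested.

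Likeness of pattern was measured over the 46 libraries as the mean absolute difference between log2 CPM values scaled to a standard deviation (SD) of 1. Within the family Igf1 and Igfbp7 were the closest pair at 0.415 SD, and Igf1r and Igfbp6 the farthest at 1.51 SD. Igf1r was at least 1.11 SD from every other member. Among all genes the nearest to Igf1 were Egfr (0.388 SD) and Emp1 (0.393 SD), and Egfr was also the nearest to Igfbp7 (0.317 SD), with Fzd1 next (0.343 SD). Igf2 lay nearest to Synpo (0.380 SD) and Cdkn1c (0.455 SD), of which Cdkn1c is, like Igf2, an imprinted gene. Igfbp6 lay nearest to Lrrn4cl (0.356 SD) and Ccdc3 (0.380 SD), Igfbp4 to Spry1 (0.404 SD) and Fbln5 (0.454 SD), and Igf1r to Sort1 (0.316 SD) and Tmem170b (0.350 SD). For Igfbp5 the nearest were S100b (0.464 SD) and Synpo (0.482 SD), for Igfbp3 Ecscr (0.506 SD) and Dnm3 (0.512 SD), and for Igfbp2 Qdpr (0.577 SD) and Pop4 (0.624 SD). The median gene lay between 1.10 and 1.12 SD from each member.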

How the data were processed

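Per the labels' protocols, RNA was sequenced as stranded, paired-end mRNA libraries. Raw counts per gene, made by the authors, form the deposited table. Among tools and builds, mm10, featureCounts and DESeq2 appear in the submitters' processing notes; aligner, annotation and strand setting: not given in the sources used here. Counts were used as deposited. Of 32544 gene rows, 7355 had no count in any library and 27 carried date-like names. CPM used library sizes scaled by TMM (factors 0.793 to 1.12); RPKM divided CPM by the exon bases of GENCODE M21. Genes passing filterByExpr numbered 16882 (limb), 16493 (control) and 15478 (immobilized). The limb test was edgeR 4.0.16 quasi-likelihood with a mouse block and a limb effect per strain on 44 libraries, and the strain tests used 1 limb each; Benjamini-Hochberg adjustment covered all genes tested, at 0.05. Both limbs of each mouse were taken by design, which is where the pairing comes from; deviations of the limbs of a mouse correlated with a median of 0.0893 over 21 mice (-0.26 to 0.547). Differences per mouse used log2(CPM + 0.5). DESeq2 1.42.0, RLE size factors, no filter, tissue covariates, fits on single strains and left-out mice were alternatives; the scripts were tested on simulated data. All 9 members are named, partners only where they passed the mean limb test or the test of a limb effect differing among strains, and, in control limbs, for the 4 widest spreads of strain means, and the 2 genes most like each member. The members and lists were chosen with earlier results of these data known. The p-values treat mice as replicates. Counting error limits Igfbp2 and Igfbp6 most.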

Additional observations from a re-analysis of the deposited data

How the results depend on the processing

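In the mean limb effect, where none of 9 was called, DESeq2 called 1 (11.6% of all genes). Leaving out NZO/HlLtJ 4, PWK/PhJ 3 and WSB/EiJ 5 together also called 1 (7.58%). These are the mice with the highest fibrous tissue levels of their strains in 1 limb, a choice made after seeing the data. Among pathway partners, where 2 were called, DESeq2 and the 3 left-out mice gave 5 each and all 48 libraries gave 4. Without the replicate block 1 partner and none of the members was called, and the fit without that pairing put Igf2 at -0.0623 and Igfbp5 at -0.0096, on the other side of 0. Limb effects in single strains had no member called in the main fit. A/J had 1 by DESeq2, where 1733 genes were called over all, and 1 without the 3 mice (964 of 16651 genes). CAST/EiJ had 2 by DESeq2 (2971 genes) and 2 without the 3 mice (2983 of 16651 genes). It also had 1 with skeletal muscle as a covariate, where no number over all genes is given, and 3 on its own libraries (23.9%). C57BL/6J had 2 on its own libraries (1.03%) and PWK/PhJ had 2 by DESeq2 (159 genes). In the test of a limb effect differing among strains DESeq2 called 4 members and 6 partners (14.6% of all genes), and 1 member was called without the 3 mice (2.4%). The strain test in control limbs called 5 members, against 9 without the 3 mice, 8 by DESeq2, 3 with no filter and 2 with skeletal muscle, and the share of all genes moved with it (54.9%, 55%, 25% and 24.9%). Of the partners 7 were called there, against 12 without the 3 mice, 11 by DESeq2 and 13 with fibrous tissue. Calls of a strain against the others in control limbs numbered 10, against 20 without the 3 mice and 3 with skeletal muscle. Over all genes these contrasts called from 279 (A/J) to 3743 (CAST/EiJ) genes in the main fit. Without the 3 mice they called from 756 (WSB/EiJ) to 4814 (CAST/EiJ), and with skeletal muscle the numbers are not given. The strain test in immobilized limbs called 6 members (50.3% of all genes), against 3 with skeletal muscle (40.6%) and 8 by DESeq2 (62%).

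Other mean limb effects that changed sign were Igf2 at -0.265, Igfbp3 at -0.0944 and Igfbp7 at -0.0537 with the fibrous tissue covariate, Igf2 at -0.0032 with no filter, and Igfbp6 at 0.0638 with the skeletal muscle covariate. The A/J change of Igfbp5 was 0.18 with all 48 libraries. The cause was not tested in any of these. With 1 mouse left out, members called ran from 0 to 3 in the mean limb effect, in the test of a difference among strains, in CAST/EiJ and in PWK/PhJ, from 0 to 2 in A/J (1 pair, with error taken from other strains), and were 0 in the other 5 strains; partners called ran from 2 to 7 (7 without NZO/HlLtJ replicate 4) and from 0 to 4 in these 2 tests. Lowest and highest values were -0.0852 and 0.25 for Igf2, -0.0189 and 0.21 for Igfbp5 and -0.46 and 0.0283 for Igfbp6. Strain tests called 2 to 8 members and 5 to 12 partners in control limbs (both highest without NZO/HlLtJ replicate 4) and 4 to 7 members in immobilized limbs, and contrasts called 5 to 17 and 10 to 16. Over all genes the mean limb effect called from 756 to 2803 genes with 1 mouse left out, against 1255 in the main fit. Such ranges are not given for the other tests, so their counts of members and partners have no background beside them. Depth limits Igfbp2, with 0 to 47 counts a library.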
